A study of Mus musculus with 56 samples.

Results

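The genes F7 and F10 lie one behind the other on mouse chromosome 8, and this account covers the open chromatin around them. All deposited ATAC-seq peaks with their centre in chr8:12950000-13150000 (mm10) were taken, an interval of 200 kb, and 73 of the 297361 peaks of the series lay in it. F7 (ENSMUSG00000031443.7) spans 13026034 to 13035809 and F10 (ENSMUSG00000031444.16) spans 13037308 to 13056676, both on the forward strand. The series holds 56 bulk ATAC-seq libraries of 1000 cells apiece, an assay that reads accessible DNA from where the Tn5 transposase inserts its adapters. The material was clones, each grown from a single cell, of granulocyte-monocyte progenitors (GMP) from Tet2 fl/fl mouse bone marrow, held immature by a retroviral Hoxb8 fused to an oestrogen receptor domain in 0.5 µM beta-estradiol. Each of 28 clones was divided into a Tet2 KO line, which received Cre from an integrase-deficient lentivirus, and a control line, which received GFP from the same kind of vector, both at a multiplicity of infection of 200. Of these clones, 4 (19 to 22) were derived and kept in 10 ng/ml GM-CSF and 24 (1 to 5, 7 to 18 and 23 to 29) in 100 ng/ml stem cell factor (SCF). The labels give SCF as the cytokine for neutrophil-biased and GM-CSF as that for macrophage progenitors. The groups are thus GM-CSF KO and GM-CSF control (n = 4 each), and SCF KO and SCF control (n = 24 each). The libraries of each group are different clones of immortalised cells, so the spread behind every p-value is that of clones and not of animals. No clone was grown in both cytokines, and the study describes GM-CSF clones as arrested at a more mature stage. Cytokine, derivation and stage therefore cannot be told apart in the comparisons of GM-CSF with SCF clones.

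F7 and F10 encode vitamin K-dependent serine proteases of blood clotting that circulate as inactive precursors made mainly by hepatocytes. Factor VII bound to tissue factor starts the extrinsic pathway by activating factor X, and active factor X with its cofactor factor V turns prothrombin into thrombin. Monocytes and macrophages are known to make some clotting factors outside the liver. Open chromatin at a gene shows that its DNA can be reached and is not a measure of its transcription.

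The sequences below are of the 5 peaks over F7 and F10 on which the results turn, given on the forward strand of GRCm38, the assembly of mm10. The F10 promoter peak (chr8:13037050-13037350) had the largest cytokine difference of the region, and its part before the F10 start site is shown. The F7 exon 2 peak (chr8:13028572-13028872) also passed the test in both kinds of line, the F10 intron 2 peak (chr8:13039106-13039406) passed it in Tet2 KO lines, the F7 intron 1 peak (chr8:13027675-13027975) held the most counts of any peak over both genes, and the F10 intron 3 peak (chr8:13041357-13041657) had the opposite sign. For those 4, the middle 201 bases are shown, and capitals mark the motif matches named afterwards.
F10 promoter: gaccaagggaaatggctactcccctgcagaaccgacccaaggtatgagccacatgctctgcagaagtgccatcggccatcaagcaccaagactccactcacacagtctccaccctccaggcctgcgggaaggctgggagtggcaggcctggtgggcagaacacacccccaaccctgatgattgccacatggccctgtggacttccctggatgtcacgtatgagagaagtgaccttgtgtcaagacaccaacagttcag
F7 exon 2: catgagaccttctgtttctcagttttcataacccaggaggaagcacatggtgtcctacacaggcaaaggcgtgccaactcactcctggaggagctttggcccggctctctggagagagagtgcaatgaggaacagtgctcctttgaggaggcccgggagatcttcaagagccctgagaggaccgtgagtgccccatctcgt
F10 intron 2: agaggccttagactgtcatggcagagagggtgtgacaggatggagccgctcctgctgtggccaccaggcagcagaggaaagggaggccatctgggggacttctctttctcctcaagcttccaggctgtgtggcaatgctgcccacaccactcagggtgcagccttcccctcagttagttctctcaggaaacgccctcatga
F7 intron 1: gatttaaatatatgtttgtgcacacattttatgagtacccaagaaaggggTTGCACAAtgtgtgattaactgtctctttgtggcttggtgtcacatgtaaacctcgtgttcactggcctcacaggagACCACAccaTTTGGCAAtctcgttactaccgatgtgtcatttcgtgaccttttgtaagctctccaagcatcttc
F10 intron 3: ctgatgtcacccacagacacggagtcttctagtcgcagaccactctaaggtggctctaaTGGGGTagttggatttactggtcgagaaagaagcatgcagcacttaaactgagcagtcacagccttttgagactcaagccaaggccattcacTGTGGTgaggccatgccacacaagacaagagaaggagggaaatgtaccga

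These stretches were searched on both strands for the letters of 12 motifs, and only the F7 intron 1 and F10 intron 3 stretches held any. F7 intron 1 held a pair of matches to the C/EBP letters TTGCNNAA, as TTGCACAA and, on the reverse strand, TTTGGCAA, and a reverse match to the RUNX letters TGNGGT. F10 intron 3 held a pair of forward RUNX matches, and no match overlapped another. The C/EBP letters occur in 13.3% and the RUNX letters in 56.3% of all peaks of 301 bases. The other letters, with the percent of all peaks that hold them, were GAGGAAGT for PU.1 (6.79%), TGANTCA for AP-1 (12.2%), AGATAA for GATA factors (12.6%), the IRF motif of 10 letters (4.23%), TTCNNNGAA for STAT (8.74%), CCACACCC for KLF (3.85%), GGGCGG for SP factors (11.0%), CCAAT for NFY (30.3%), the CTCF motif of 12 letters (5.45%) and CAAAGTCCA for the hepatocyte factor HNF4 (0.437%). Over the full length of the 73 peaks, the C/EBP letters were in 5.48%, the RUNX letters in 61.6% and the HNF4 letters in 0.0%. A match is a run of letters and not a bound site.

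The libraries held 39379 to 1079233 counts (median 389432.5), and the region 13 to 347 counts per library. The shallowest were the GM-CSF KO lines of clones 20 and 19 (39379 and 40876 counts), where a single count is worth 25.4 and 24.5 CPM (counts of a library scaled to a fixed total). At least 1 line of clones 3, 4, 13, 19, 20 and 27 had under 50% of the median total. Tet2 could not serve as a check of the genotype labels, since 0 peaks lie on its exon 3, and its locus did not pass the test between SCF KO and control lines (log2 0.03 ± 0.13 SE, adjusted p = 0.927). Promoter peaks took a mean of 42.3% and 43.3% of counts in GM-CSF KO and control lines, against 48.1% and 46.4% in SCF KO and control lines. The loci of 10 stem and early progenitor markers summed to 152 to 342 CPM in GM-CSF KO and 163 to 238 CPM in GM-CSF control lines, below the 415 to 711 CPM of SCF KO and the 355 to 682 CPM of SCF control lines.

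The 73 peaks held 7158 counts in all. The peak that is the shared promoter of Cul4a, the scaffold of a ubiquitin ligase, and Pcid2, a component of an mRNA export complex, took 37.4% of them. It lies 68.2 kb downstream of the F10 start and held 2678 counts. The others were far lower, with a median of 32 counts over all 73, near the 29 of all peaks of the series, and 18 of the 73 had at least 50 counts. The most open of them was an internal promoter of Mcf2l 53.1 kb upstream of the F10 start (338 counts). By overlap, 31 peaks lay on Mcf2l, 9 on F7, 5 on F10, 6 on Proz (protein Z, another vitamin K-dependent clotting protein), 6 on Pcid2 and 12 on Cul4a. The median GC content was 54.8%, against 50.5% over all peaks.

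**Figure D1:**
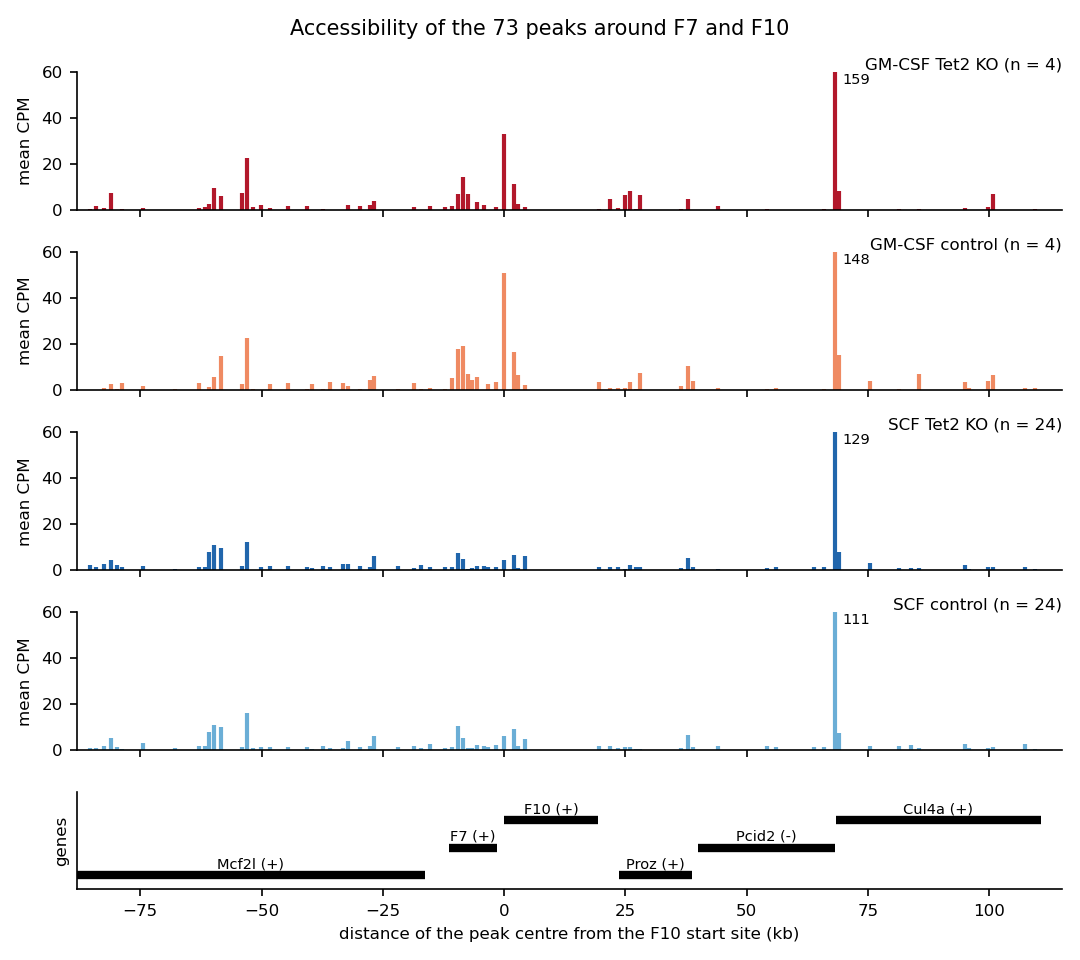
Mean CPM of each of the 73 peaks (vertical axis, cut at 60 with the value of the Cul4a and Pcid2 promoter peak written beside it) against the distance of its centre from the F10 start site in kb, for the 4 groups, with the genes below. The F10 promoter peak at the origin averaged 33.1 and 50.9 CPM in GM-CSF KO and control lines, and 4.69 and 6.09 CPM in SCF KO and control lines.

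The promoter of F10 was far more open in GM-CSF than in SCF clones, whichever the genotype. The promoter peak is centred 0.1 kb before the start site. It reached 24.5, 25.4, 27.7 and 54.8 CPM in GM-CSF KO lines 19 to 22, from 1, 1, 13 and 24 counts. In the GM-CSF control lines of the same clones it reached 43.5, 68.0, 47.9 and 44.3 CPM, from 5, 6, 26 and 34 counts. In SCF KO lines the lowest value was 0, the median 2.55 and the highest 26.4 CPM. In SCF control lines the lowest was 0, the median 5.24 and the highest 19.3 CPM. The control lines of the cytokines did not overlap. Of the SCF KO lines, 1 lay at or above the lowest GM-CSF KO line, whose value is a single count. The share of all peaks that separate in this way was not counted, here or for the F7 exon 2 peak. The F10 promoter peak held 71 counts in the 4 GM-CSF control lines and 65 in the 24 SCF control lines.

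Tested across all peaks with at least 50 counts, the F10 promoter peak was higher in GM-CSF clones by a log2 fold change of 3.00 ± 0.31 (SE) in control lines (adjusted p = 7.28e-19) and 3.17 ± 0.40 in KO lines (adjusted p = 4.54e-12). Of the 73 peaks, 14 could be tested in control lines and 3 were called at an adjusted p of 0.01, all higher in GM-CSF, where 11.0% of the 36026 peaks tested were called, 4.51% as higher and 6.5% as lower. In KO lines 13 could be tested and 3 were called, again all higher, where 7.83% of 27403 peaks were called, 2.85% as higher and 4.98% as lower. The F10 promoter and F7 exon 2 peaks were called in both comparisons, the Cul4a and Pcid2 promoter peak in control lines and the F10 intron 2 peak in KO lines. In KO lines the SCF libraries alone held 39 and 42 counts at the F10 promoter and F7 exon 2 peaks. They held 49 at a peak 37.9 kb downstream of the F10 start, which was not called. These peaks reached the filter only with the GM-CSF counts (39, 16 and 9), so their entry to the KO test was not independent of its result. Of the 3 called in KO lines, only the F10 intron 2 peak reached the filter on SCF counts alone (59). In control lines the median log2 fold change of the tested peaks of the region was 0.52, against -0.08 over all peaks tested. In KO lines it was 0.76, against -0.17. The KO median includes the peaks that entered through GM-CSF counts, whose values all lie above it (3.17, 1.83 and 0.82). It was therefore shaped in part by the filter. With a filter of 10 counts in place of 50, the F10 promoter peak alone was called in each comparison, and in KO lines 1 peak was called with DESeq2, with SCF clones 23 to 29 as the reference, and without clone 21 or clone 22. Without clone 22, 1 peak was called in control lines.

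The peak over exon 2 of F7, 8.6 kb before the F10 start, was also higher in GM-CSF clones, at a lower level. It reached 0, 25.4, 19.2 and 13.7 CPM in GM-CSF KO lines 19 to 22, from 0, 1, 9 and 6 counts. GM-CSF control lines had 17.4, 22.7, 16.6 and 19.6 CPM. The median was 4.23 CPM (0 to 30.8) in SCF KO and 5.30 CPM (0 to 14.0) in SCF control lines. The control lines did not overlap, while KO lines did, clone 19 having no count. The log2 fold change was 1.84 ± 0.41 in control lines (adjusted p = 0.000189) and 1.83 ± 0.52 in KO lines (adjusted p = 0.0062). Without clone 22 the adjusted p was 0.0347 in control and 0.0492 in KO lines, past the threshold of 0.01 in neither.

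The other peaks over the genes were thinner. The F10 intron 2 peak, 1.9 kb after the start, reached 0, 0, 27.7 and 18.3 CPM in GM-CSF KO lines, against a median of 7.18 CPM (0 to 17.6) in SCF KO lines, with a log2 fold change of 1.71 ± 0.45 (adjusted p = 0.00301) that rested on clones 21 and 22 (adjusted p = 0.294 without clone 21 and 0.0375 without clone 22). In control lines it had 17.4, 11.3, 20.2 and 17.0 CPM in GM-CSF, against a median of 9.68 CPM (0 to 28.3) in SCF, and a log2 fold change of 0.93 ± 0.38 (adjusted p = 0.067). Both cytokines overlapped there. The F7 intron 1 peak, 9.5 kb before the F10 start, did not pass either test (log2 0.55 ± 0.39 in control and 0.76 ± 0.50 in KO lines). The F7 promoter peak itself, 10.8 kb before the F10 start, held 37 counts over all libraries and was not tested.

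The F10 intron 3 peak, 4.2 kb after the start, went the other way. It had counts in 1 of 4 GM-CSF KO lines (4.57 CPM in clone 22) and in 1 of 4 GM-CSF control lines (8.70 CPM in clone 19), against 21 of 24 SCF KO lines (median 5.61 CPM) and 18 of 24 SCF control lines (median 4.95 CPM). Its log2 fold change in control lines was -2.70 ± 0.92, with an adjusted p of 0.0248, above the threshold of 0.01. Without clone 19, whose value there is a single count, it passed (adjusted p = 0.00461). In KO lines it was -1.40 ± 0.87 (adjusted p = 0.306).

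Across the 14 peaks that lie over F7 or F10, 12 had a higher mean in GM-CSF control than in SCF control lines, which is 85.7% of them, where 40.0% of all peaks did. Their summed accessibility was 145 CPM in GM-CSF control lines and 52.4 CPM in SCF control lines. In KO lines the mean was higher in GM-CSF at 8 of the 14, where 33.3% of all peaks were, and the sums were 86.0 CPM in GM-CSF KO and 43.4 CPM in SCF KO lines. These counts of means are a description, since most of the 14 peaks were too sparse to be tested.

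**Figure D2:**
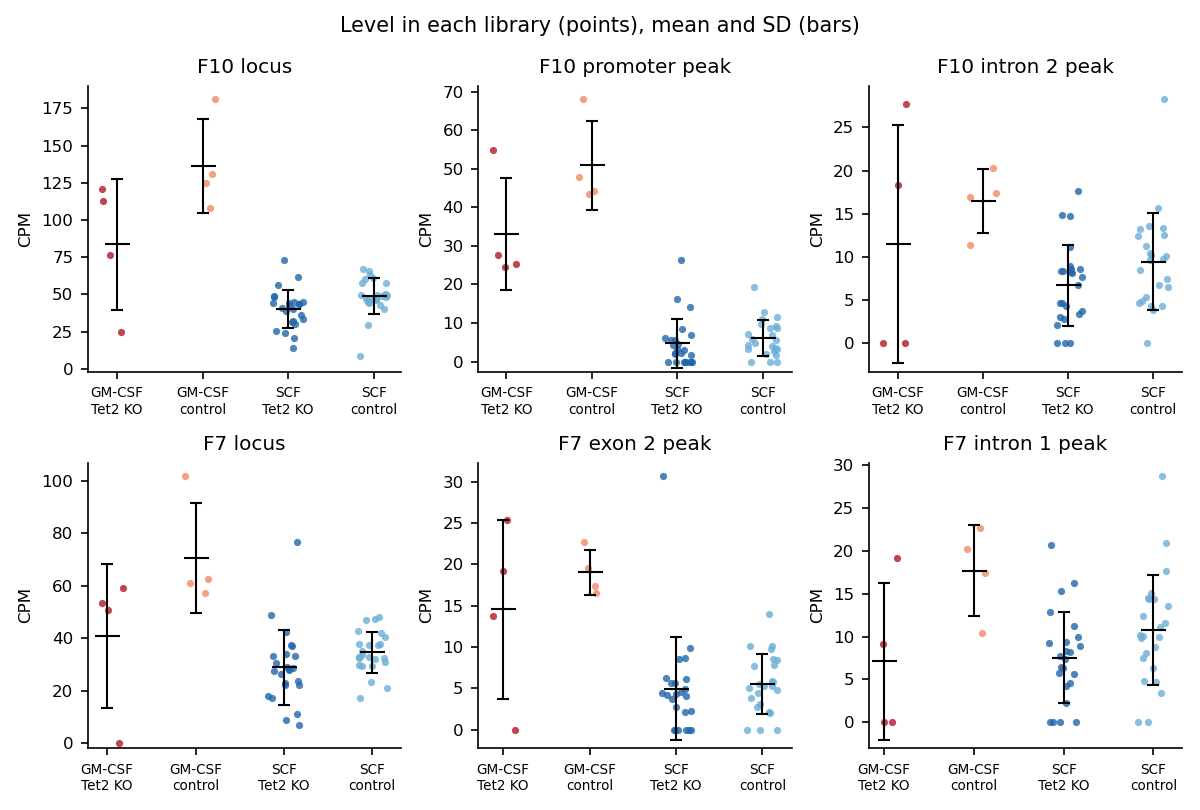
CPM in each library (points) with mean and SD (bars) at the F10 locus, the F10 promoter peak, the F10 intron 2 peak, the F7 locus, the F7 exon 2 peak and the F7 intron 1 peak, by group. At the F10 promoter peak all 4 GM-CSF control lines (43.5 to 68.0 CPM) lie above all 24 SCF control lines (0 to 19.3 CPM).

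At the level of the gene, taken as all peaks centred within 10 kb of its start site, both F10 and F7 were more open in GM-CSF clones. The F10 locus (12 peaks) reached 24.5, 76.2, 113 and 121 CPM in GM-CSF KO lines 19 to 22, from 1, 3, 53 and 53 counts. It reached 131, 181, 125 and 108 CPM in the GM-CSF control lines. SCF KO lines ran from 13.7 to 73.2 CPM (median 42.0) and SCF control lines from 8.69 to 67.0 CPM (median 48.4). The lowest GM-CSF control line, 108 CPM, thus lay above the highest SCF control line. Of the GM-CSF KO lines, 3 lay above the highest SCF KO line and clone 19 lay within. How many of all loci separate in this way was not counted, here or for the F7 locus.

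The F10 locus was 2.45-fold higher in GM-CSF than in SCF control lines (95% interval 2.00 to 2.99, log2 1.29 ± 0.15, adjusted p = 2.94e-12) and 2.92-fold higher in KO lines (2.25 to 3.79, log2 1.54 ± 0.19, adjusted p = 7.84e-11). In these comparisons 12.4% of 12933 and 9.83% of 11378 loci were called, 5.77% and 4.23% as higher and 6.68% and 5.61% as lower. Without each GM-CSF clone in turn the log2 value stayed between 1.22 and 1.45 in control lines and between 1.40 and 1.60 in KO lines. Without its promoter peak the F10 locus was still higher in GM-CSF (log2 0.76 ± 0.18, adjusted p = 0.00092 in control lines and 1.07 ± 0.23 in KO lines), an alternative chosen after seeing the data. Within 1 kb of the start alone the difference in control lines was 3.00 on the log2 scale. With a window of 50 kb it was 0.97 in control and 1.02 in KO lines, still called in both. F10 is among the loci that the study picked out on these same clones, so its cytokine difference is not independent evidence. The study reported F10 regulatory chromatin as enriched in control clones whose functions changed less with Tet2 KO, ranking GM-CSF and SCF clones together.

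The F7 locus (13 peaks) reached 0, 50.8, 53.3 and 59.4 CPM in GM-CSF KO lines 19 to 22 and 60.9, 102, 62.6 and 57.4 CPM in GM-CSF control lines. SCF KO lines ran from 6.80 to 76.9 CPM (median 28.0) and SCF control lines from 17.4 to 48.2 CPM (median 33.2), so that the control lines did not overlap and the KO lines did. The log2 fold change was 0.88 ± 0.19 in control lines (adjusted p = 0.000295) and 1.00 ± 0.27 in KO lines (adjusted p = 0.00681). The call in KO lines was lost without clone 21 (adjusted p = 0.116) or clone 22 (0.209), with DESeq2 (0.0762) and with the promoter share as a covariate (0.0566). The F7 and F10 loci are not independent, since they share 8 peaks that held 50.2% of the counts of the F10 locus and 78.0% of those of the F7 locus.

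Of the other genes of the region, Cul4a and Lamp1 passed the test in control lines and none that could be tested passed it in KO lines. The Cul4a locus, whose peaks are also those of Pcid2, averaged 167 ± 24.6 and 167 ± 73.9 CPM in GM-CSF KO and control lines, against 143 ± 30.7 and 123 ± 27.7 CPM in SCF KO and control lines (SD). Its log2 fold change was 0.49 ± 0.14 in control lines (adjusted p = 0.00656; 0.0618 without clone 19 and 0.301 without clone 22) and 0.25 ± 0.14 in KO lines (adjusted p = 0.30). Lamp1, a lysosomal membrane protein gene whose peaks lie just outside the interval, had 0.53 ± 0.19 in control lines (adjusted p = 0.0396; 0.105, 0.239 and 0.146 without clones 19, 21 and 22, and a log2 value of -0.0039 with a window of 1 kb) and 0.03 ± 0.26 in KO lines. Mcf2l, whose first start site lies outside the interval, did not pass either test, and its locus holds 0 peaks of the interval. Proz was too sparse to be tested, with means of 28.7 and 17.7 CPM in GM-CSF KO and control lines and 9.82 and 9.32 CPM in SCF KO and control lines, and with values of 0 in every group.

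The remaining peaks with many counts lie outside F7 and F10, apart from a peak in an F7 intron 5.5 kb before the F10 start (61 counts), which averaged 3.39 and 5.65 CPM in GM-CSF KO and control lines and 2.09 and 2.45 CPM in SCF KO and control lines. The Cul4a and Pcid2 promoter peak averaged 159 and 148 CPM in GM-CSF KO and control lines and 129 and 111 CPM in SCF KO and control lines. Its log2 fold change was 0.50 ± 0.15 in control lines (adjusted p = 0.00884; 0.0821 without clone 19 and 0.356 without clone 22) and 0.29 ± 0.17 in KO lines (adjusted p = 0.262). A peak on a Cul4a exon 69.1 kb downstream had 1.18 ± 0.39 in control lines (adjusted p = 0.0188) and the internal promoter of Mcf2l 0.78 ± 0.31 (adjusted p = 0.0624), so that neither passed at 0.01. The 3 Mcf2l intron peaks 60.8, 59.8 and 58.4 kb upstream averaged 1.57, 5.65 and 14.9 CPM in GM-CSF control lines and 7.90, 10.9 and 10.3 CPM in SCF control lines.

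Over the whole 200 kb, GM-CSF KO lines held 385 ± 58.8 CPM and GM-CSF control lines 465 ± 69.5 CPM, against 312 ± 39.7 CPM in SCF KO and 311 ± 29.4 CPM in SCF control lines (SD). The lowest GM-CSF control line, 410 CPM, lay above the highest SCF control line, 371 CPM. How many of all 200 kb windows separate in this way was not counted. The log2 fold change was 0.58 ± 0.08 in control lines (adjusted p = 1.25e-07) and 0.44 ± 0.10 in KO lines (adjusted p = 0.00113; 0.0955 without clone 22), where 20.6% and 15.2% of all 200 kb windows were called, 10.1% and 7.08% as higher and 10.5% and 8.1% as lower. A higher share of cells with open DNA and more openness in each cell cannot be told apart in bulk libraries.

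**Figure D3:**
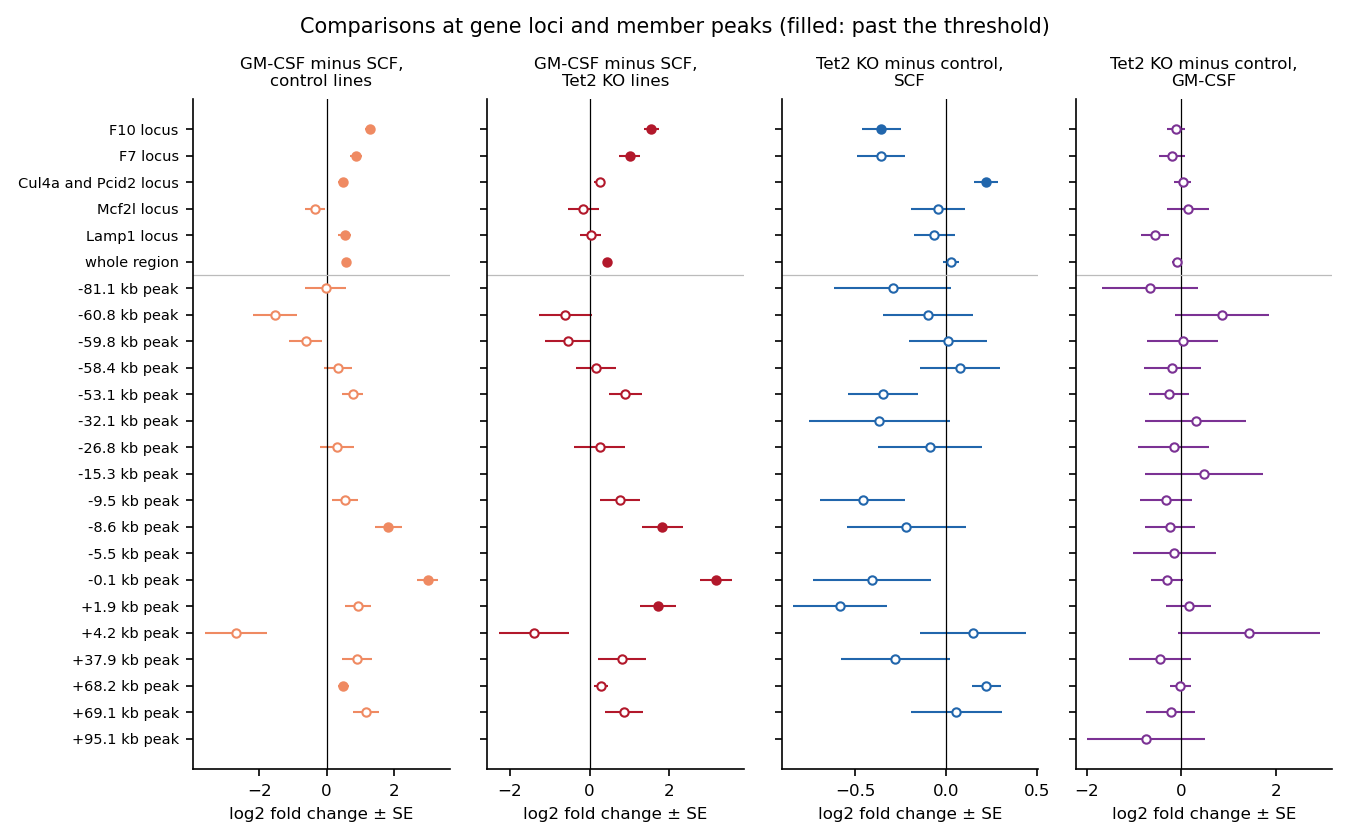
Log2 fold change ± SE (horizontal axis, its range differing between panels) at gene loci, the whole region and the 18 peaks with at least 50 counts, for GM-CSF minus SCF in control lines and in Tet2 KO lines, and for Tet2 KO minus control in SCF and in GM-CSF clones; filled points passed the threshold and peaks are named by their distance from the F10 start in kb. The F10 promoter peak (-0.1 kb) lies at 3.00 and 3.17 in the cytokine panels and at -0.41 and -0.30 in the genotype panels.

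The SCF clones form 2 sets by number (1 to 18 and 23 to 29), and the clones of GM-CSF lie between them in numbering. With SCF clones 23 to 29 alone as the reference the F10 locus had a log2 fold change of 1.38 ± 0.18 in control and 1.58 ± 0.22 in KO lines, and with SCF clones 1 to 18 alone 1.25 ± 0.15 and 1.54 ± 0.19. Marker lists moved with the same comparison. In GM-CSF control lines 8 of 8 tested stem and early progenitor loci were lower, 5 of 10 neutrophil loci were higher and 2 lower, and 2 of 12 monocyte and macrophage loci were higher and 2 lower, where 5.77% of all loci were called higher and 6.68% lower. DESeq2 called the same numbers except for 3 higher neutrophil loci. In GM-CSF KO lines the stem loci were again 8 of 8 lower, with 4 of 9 neutrophil loci higher and 2 lower and 2 of 7 monocyte loci lower, where 4.23% of all loci were called higher and 5.61% lower, and DESeq2 called 3 neutrophil loci higher and 1 lower. Summed over each list, the neutrophil loci had 514 to 693 CPM in GM-CSF KO, 548 to 716 CPM in GM-CSF control, 384 to 778 CPM in SCF KO and 465 to 670 CPM in SCF control lines, and the monocyte and macrophage loci 440 to 658 CPM in GM-CSF KO, 616 to 696 CPM in GM-CSF control, 521 to 750 CPM in SCF KO and 536 to 860 CPM in SCF control lines, so that the ranges of both lists overlapped between cytokines. Of the other lists, 2 of 3 basophil, eosinophil and mast cell loci, 1 of 5 erythroid and megakaryocyte loci and 2 of 3 lymphoid loci were lower in GM-CSF control lines (1 of each list with DESeq2). In GM-CSF KO lines 1 of 3, 2 of 4 and 2 of 3 were lower (1, 2 and 1 with DESeq2). Their part in the F7 and F10 result was not tested.

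Hepatocytes are the main source of the F7 and F10 proteins, and the loci of hepatocyte genes were compared in the same way. Of 9 genes, 8 had peaks, and their summed level was 48.9 to 136 CPM in GM-CSF KO, 79.3 to 133 CPM in GM-CSF control, 78.7 to 166 CPM in SCF KO and 74.8 to 138 CPM in SCF control lines. All 4 ranges overlapped. Fgb is a gene of this list, and a locus can also hold peaks of a neighbouring gene. Its locus alone averaged 55.2 and 50.7 CPM in GM-CSF KO and control and 68.6 and 58.4 CPM in SCF KO and control lines. With edgeR 0 of the 3 tested between cytokines in control lines and 0 of the 2 tested in KO lines were called, 1 and 0 had an unadjusted p under 0.05, and DESeq2 called 0.

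The F10 locus was slightly lower in Tet2 KO than in control lines of SCF clones, in a call that several alternatives removed. In SCF KO lines the locus averaged 40.2 ± 13.1 CPM and in SCF control lines 48.9 ± 12.2 CPM (SD), and it was lower in the KO line of 19 of 24 clones. With the clone as a block the fold change was 0.782 (95% interval 0.677 to 0.903, log2 -0.36 ± 0.11, adjusted p = 0.0214), where 6.14% of 10408 loci were called, 4.64% as higher and 1.5% as lower. The call was lost within clones 1 to 18 (log2 -0.39, adjusted p = 0.0595) and clones 23 to 29 (-0.27, 0.717), with the promoter share (-0.34, 0.0603) or a GC offset (-0.31, 0.0734) in the model, with a window of 50 kb (-0.16, 0.212), and without clone 16 (-0.32, 0.0615) or clone 17 (-0.32, 0.0549). DESeq2 gave -0.36 ± 0.12 and no adjusted p for this locus.

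No peak of the region passed the test on its own. With edgeR 15 of the 73 peaks could be tested and 0 were called (0 also with DESeq2), 3 had an unadjusted p under 0.05, and 0.158% of all 53326 peaks were called, 0.146% as higher and 0.0113% as lower. Those 3 were the F10 intron 2 peak (log2 -0.58 ± 0.26, p = 0.023, adjusted p = 0.547), the F7 intron 1 peak (-0.46 ± 0.23, p = 0.0495, adjusted p = 0.652) and the Cul4a and Pcid2 promoter peak (0.22 ± 0.08, adjusted p = 0.339). The F10 promoter peak had -0.41 ± 0.32 (adjusted p = 0.841). Without that peak the F10 locus kept nearly the same value, -0.35 (adjusted p = 0.0405). Of the 14 peaks over F7 or F10, 11 had a lower mean in SCF KO lines, where the mean was lower at 157962 of all 297361 peaks.

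The F7 locus had the same fold change without passing the threshold. It was lower in the KO line of 18 of 24 SCF clones, with a fold change of 0.780 (0.653 to 0.931, log2 -0.36 ± 0.13, adjusted p = 0.0808), and it passed without the clones of low total (adjusted p = 0.042) or without clone 3 (0.0359), clone 10 (0.0499) or clone 23 (0.04). The Cul4a and Pcid2 locus went up by 0.22 ± 0.07 on the log2 scale (adjusted p = 0.0238, higher in 15 of 24 clones), a call lost with DESeq2 (0.0726) and without clone 12, 16, 17, 18 or 25 (0.0602 to 0.104). Over the whole region the sum did not change detectably (log2 0.03 ± 0.04, adjusted p = 0.862), with 2.98% of windows called, 2.66% as higher and 0.315% as lower.

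**Figure D4:**
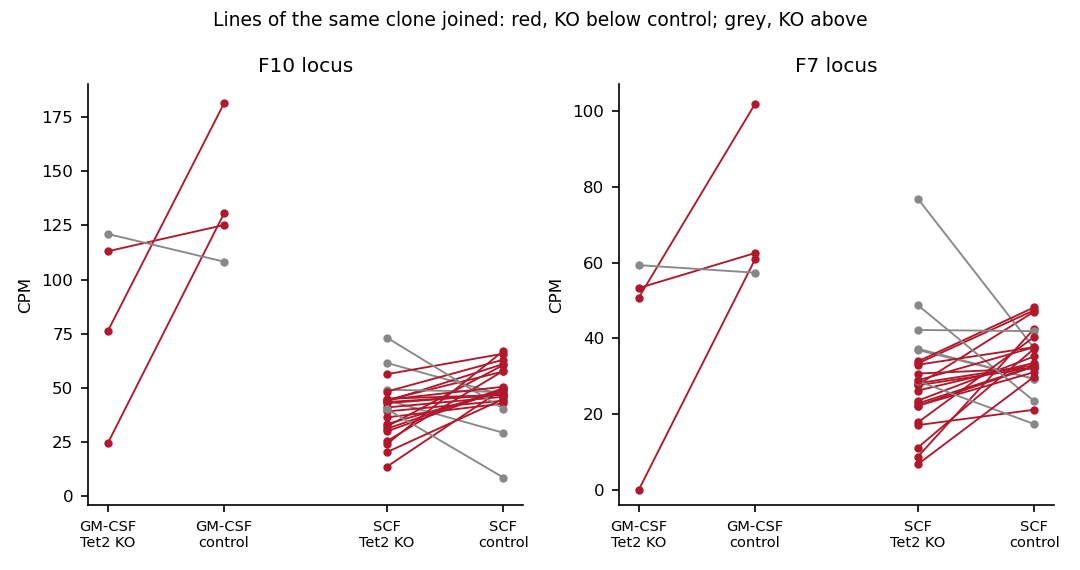
CPM of the F10 locus (left) and the F7 locus (right) in the Tet2 KO and control line of each clone, joined by a line that is red where the KO line is lower and grey where it is higher. The KO line is lower in 19 of 24 SCF and 3 of 4 GM-CSF clones at F10, and in 18 of 24 and 3 of 4 at F7.

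In GM-CSF clones no difference between the genotypes was detectable at F10 or F7. The F10 locus averaged 83.7 ± 44.0 CPM in KO and 136 ± 31.5 CPM in control lines (SD, n = 4), but the fit, which weighs the shallow KO lines of clones 19 and 20 by their counts, gave a fold change of 0.930 (95% interval 0.717 to 1.21, log2 -0.10 ± 0.19, adjusted p = 0.986). F7 had 0.873 (0.605 to 1.26, adjusted p = 0.986). The KO effect at F10 differed between GM-CSF and SCF clones by 1.18-fold (0.876 to 1.59, adjusted p = 0.998). With edgeR 0 of 18 tested peaks of the region passed either test, 0 had an unadjusted p under 0.05 and DESeq2 called 0, where 0.0% of all 62016 peaks were called. Of the 14 peaks over F7 or F10, 13 had a lower mean in GM-CSF KO lines. Of all 297361 peaks, the mean was lower at 155413 and equal at 17003. The sums over the 14 peaks were 86.0 CPM in KO and 145 CPM in control lines. In these, the KO lines of clones 19 and 20 had 1 and 3 counts at the F10 locus.

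The F10 promoter peak took a larger share of its locus in GM-CSF clones, but whether the test passed varied with the lines and clones taken. The share re-uses the peak tested above and is not a separate result. The promoter peak held 35.5% of the locus counts in GM-CSF KO and 39.0% in GM-CSF control lines, against 11.1% in SCF KO and 11.9% in SCF control lines, with the libraries of a group pooled. Per library, the share was 50.8 ± 33.9% in GM-CSF KO against 10.2 ± 12.6% in SCF KO lines (SD, exact two-sided permutation test, p = 0.00244). GM-CSF KO clone 19 reached 100% there on a single count, and without it the difference of 40.6 percentage points was 24.2 points (exact p = 0.0171). In control lines it was 37.5 ± 3.16% in GM-CSF against 15.3 ± 20.1% in SCF (exact p = 0.121), where SCF clone 27 reached 100% on a single count. Without the clones of low total the difference was 23.7 percentage points in KO lines (exact p = 0.0693) and 28.0 points in control lines (exact p = 0.00866), an alternative chosen after seeing the data.

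The level of the F10 locus in a control line was not detectably related to that in the KO line of the same clone. Over the 24 SCF clones Pearson's r was -0.05 (permutation p = 0.827) and Spearman's rank correlation 0.01 (p = 0.976). Without clones 27 and 29, the farthest from the median, r was 0.05 (p = 0.844). Within clones 1 to 18 r was 0.16 (p = 0.556), and within clones 23 to 29 it was -0.29 (exact p = 0.525). No value passed in this family of 4 relations (adjusted p = 0.844 for each r and 0.928 to 0.976 for the rank correlation, permutation tests). The variance of the F10 locus between SCF clones was 1.11 times that of counting alone in KO and 0.667 times in control lines, and for the Cul4a locus 1.89 and 2.34 times. A ratio of 1 is the spread that counting alone would give.

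The loci whose level correlated most with that of F10 over the SCF control lines are given as a description, since these libraries share depth and base composition. They are the highest of 10392 correlations. The F10 locus itself varied between these lines no more than counting alone would give (0.667 times). The highest of 10392 loci was shared by Spata33 and Chmp1a, which have the same peaks (r = 0.74 over 24 SCF control lines), followed by the chemokine receptor gene Cxcr4 (0.69), Rflnb (0.67), the nuclear receptor gene Ppara (0.66), Selenon (0.66), Repin1 with Gm44965 (0.66) and Armc10 with Fbxl13 (0.66). Over the 24 SCF KO lines the same loci had r between -0.25 and 0.29.

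Among 41 genes of coagulation and fibrinolysis, a list that holds F7 and F10, 37 had a peak near the start and 20 could be tested between GM-CSF and SCF control lines. Of these, 3 were higher in GM-CSF (F10, F2 and F7) and 5 lower, where 5.77% of all loci were called higher and 6.68% lower, with a median log2 fold change of 0.11, against -0.01 over all loci. DESeq2 called 3 higher and 3 lower. F2, the gene of prothrombin and so of the substrate of active factor X, averaged 35.9 ± 11.1 and 39.4 ± 19.4 CPM in GM-CSF KO and control lines and 13.7 ± 7.30 and 15.8 ± 8.80 CPM in SCF KO and control lines (SD). Its log2 fold change was 1.15 ± 0.32 in control lines (adjusted p = 0.0065; 0.0573 without clone 21) and 1.46 ± 0.38 in KO lines (adjusted p = 0.0036; 0.0596 without clone 21 and 0.116 without clone 22), and with a window of 50 kb neither was called (0.23 and 0.14).

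The loci of 3 thrombin receptors were lower in GM-CSF control lines. F2r, the main thrombin receptor PAR1, averaged 15.6 ± 11.2 and 20.7 ± 6.20 CPM in GM-CSF KO and control lines, against 58.1 ± 25.9 and 55.9 ± 18.0 CPM in SCF KO and control lines, with a log2 fold change of -1.72 ± 0.27 in control lines and -1.68 ± 0.33 in KO lines. F2rl3, which encodes PAR4, had -1.64 ± 0.34 and -1.67 ± 0.41 (without clone 21 the KO value had an adjusted p of 0.106). F2rl2, which encodes PAR3, had -1.47 ± 0.41 in control lines (adjusted p = 0.0075; 0.128 without clone 22). With a window of 50 kb the sign of F2rl2 turned (log2 0.15, adjusted p = 0.598) and F2rl3 was no longer called (-0.32 in control and -0.43 in KO lines), while F2r kept its call (-1.46 and -1.22). Procr, the receptor of protein C, had -0.82 ± 0.27 (adjusted p = 0.0308) and F13a1, the fibrin cross-linking subunit, -0.70 ± 0.21 (adjusted p = 0.0155) in control lines; both were lost without clone 21 (0.108 and 0.18) or clone 22 (0.35 and 0.251) and with SCF clones 23 to 29 as the reference (0.346 and 0.352), and that of Procr also with 50 kb (0.136).

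In KO lines 15 genes of the list were tested, with F10, F2 and F7 higher in GM-CSF and F2r, F2rl3 and F13a1 (-1.16 ± 0.31, adjusted p = 0.0058; 0.337 without clone 21) lower, where 4.23% of all loci were called higher and 5.61% lower, and DESeq2 called 2 higher and 3 lower. The most open loci of the list did not pass the test in any comparison: Vkorc1, which recycles vitamin K (74.5 CPM over all libraries), F12 of the contact pathway (67.3), Fgb of fibrinogen (62.0) and Ggcx, the vitamin K-dependent carboxylase that modifies F7 and F10 (59.9). A locus can also hold peaks of a neighbouring gene, and the other fibrinogen genes Fga and Fgg had 1.14 and 4.38 CPM. Between SCF KO and control lines F10 was the 1 gene called of 14 tested, a share near the 6.14% of all loci called (median log2 -0.07, all loci -0.01). DESeq2 called 0 of those 14, but it gave F10 and F7 no adjusted p and so could not call them. With edgeR 4 had an unadjusted p under 0.05. In GM-CSF clones 0 of 18 were called between KO and control lines with edgeR, 0 had an unadjusted p under 0.05 and DESeq2 called 0.

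**Figure D5:**
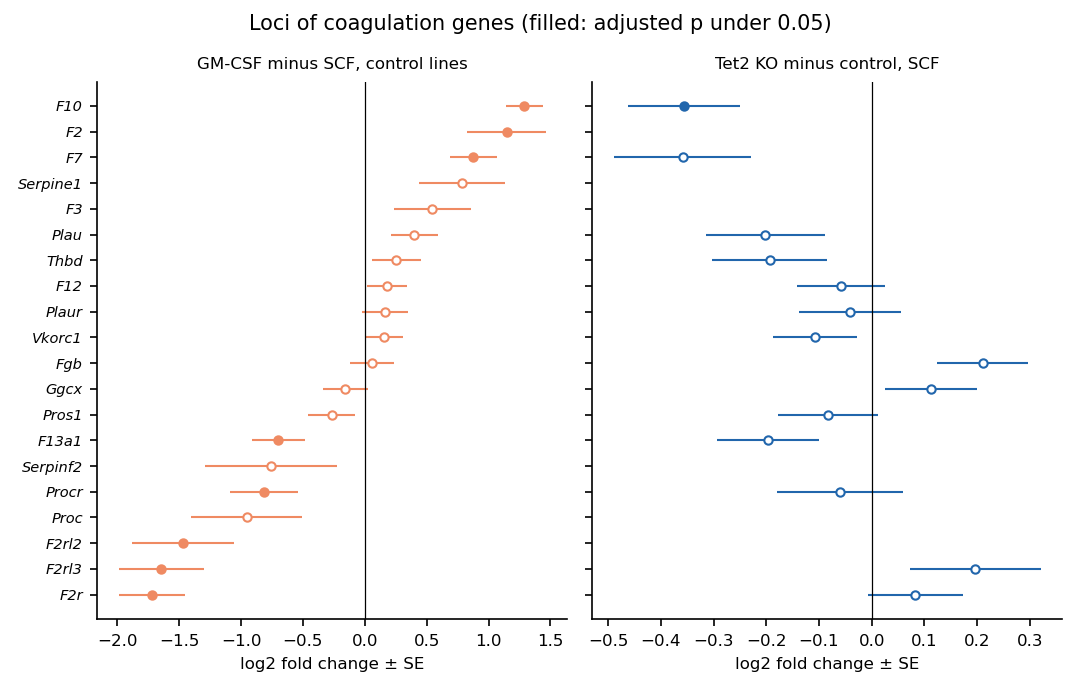
Log2 fold change ± SE (horizontal axis) at the loci of the coagulation and fibrinolysis genes that could be tested, for GM-CSF minus SCF in control lines (left) and Tet2 KO minus control in SCF clones (right); filled points had an adjusted p under 0.05. F10 is the highest on the left (1.29) and the one called on the right (-0.36), and the thrombin receptor genes F2r, F2rl3 and F2rl2 lie at the bottom on the left.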

How the data were processed

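Per the labels, reads were handled with Bowtie2, SAMtools and Picard on build mm10 (versions: not given in the sources used here). They deposited raw counts of 56 libraries over 297361 peaks of 301 bases, made from MACS2 summits of single-cell ATAC-seq and non-overlapping ImmGen peaks. Whether a count is a fragment or an insertion is not stated. The titles of the GM-CSF clones 20 to 22 name SCF, and these clones were grouped by their treatment label and library name.

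Counts were tested with edgeR 4.0.16 (R 4.3.3, quasi-likelihood, TMM factors, Benjamini-Hochberg adjustment over the whole table), with DESeq2 1.42.0 as an alternative. A locus was the sum of peaks centred within 10 kb of the start of the gene record (GENCODE vM21 basic), and a promoter peak lay within 1 kb of the start of any transcript. Peaks entered a test with at least 50 counts and were called at an adjusted p of 0.01, loci and 200 kb windows passed a filter with a minimum count of 10 and were called under 0.05. KO and control lines were compared with the clone as a block, because both came from the same clone, and the deviations of the 28 pairs correlated between -0.012 and 0.296 (7 over 0.1). The blocked fit of peaks took its dispersion from 4000 peaks. CPM were scaled by library totals without TMM factors. Of 564 pairs of libraries within a group, 0 agreed within sampling noise over 200 kb windows. Permutation tests enumerated all splits where a group had under 10 values and drew 100000 otherwise. Scripts were tested on simulated data. The peaks named are the 10 of highest mean CPM, the promoter peaks of F7 and F10, peaks in their gene bodies with at least 50 counts, and those called. Of the coagulation list, genes called or among the 4 highest were named. The members and lists were chosen with earlier results of these data known. Tables were made in Python 3.11.15 (pandas 2.3.3, numpy 2.4.6), permutations in scipy 1.17.1 and plots in matplotlib 3.10.9.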

Additional observations from a re-analysis of the deposited data

Results flagged for a closer look

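In groups of 4 libraries, 44 were searched for a value far from the other 3, and 8 were found. The cutoff flags about 1 in 20 groups where values are independent and normally spread. That does not hold here, since loci share peaks and any count is flagged where the other 3 values are 0. The 8 can therefore not be set against chance. Most rest on few counts. Among GM-CSF KO lines, clone 22 stood above the others at the F10 promoter peak (54.8 CPM from 24 counts, others 24.5 to 27.7 CPM), at the F7 promoter peak 10.8 kb before the F10 start (6.85 CPM from 3 counts, others 0) and at the F10 intron 3 peak (4.57 CPM from 2 counts, others 0). Clone 20 stood above them at the Cul4a and Pcid2 promoter peak (203 CPM from 8 counts, others 141 to 147 CPM) and at the Mcf2l locus (76.2 CPM from 3 counts, others 17.1 to 24.5 CPM). Clone 19 stood below them at the F7 locus (0 CPM, others 50.8 to 59.4 CPM). Among GM-CSF control lines, clone 19 stood apart at the F10 intron 3 peak (8.70 CPM from 1 count, others 0) and clone 20 at the F7 locus (102 CPM from 9 counts, others 57.4 to 62.6 CPM).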

How the results depend on the processing

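The higher F10 promoter peak in GM-CSF clones and the higher F10 locus kept their call and direction under every alternative run that gave a value, but a window of 1 kb fell below the filter for F10 between the genotypes of SCF clones and between the cytokines in KO lines, and for F7. Leaving out each GM-CSF clone gave log2 values of 1.22 to 1.45 and 1.40 to 1.60 for F10 in control and KO lines, 0.80 to 1.00 and 0.85 to 1.08 for F7, and 0.52 to 0.65 and 0.36 to 0.47 for the whole region. For F7 in KO lines DESeq2 gave 0.92 and the promoter share as a covariate 0.75, both not called. Peaks called numbered 3 in control lines, 5 at an adjusted p under 0.05, 1 with a filter of 10 counts and 1 to 4 without each clone. In KO lines they numbered 3, 1 with DESeq2, 1 with a filter of 10 counts, 0 with edgeR's filterByExpr, 1 against SCF clones 23 to 29 and 1 to 3 without each clone.

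For Tet2 KO against control in SCF clones, F10 lost its call at -0.34 with the promoter share, -0.31 with the GC offset (chosen after seeing the data), -0.16 with 50 kb, -0.39 in clones 1 to 18 and -0.27 in clones 23 to 29. It ran from -0.41 to -0.32 without each clone, and without the replicate block, where the pairing by clone is dropped, it was -0.39 (adjusted p = 0.0155). F7 passed at -0.41 without the clones of low total and ran from -0.42 to -0.30 without each clone. The sum over the region turned to -0.0035 with the promoter share and -0.031 in clones 23 to 29. In GM-CSF clones the KO effect at F10 turned to 0.067 without the clones of low total and ran from -0.39 to -0.02 without each clone, and F7 ran from -0.48 to -0.11. The difference of the KO effects ran from -0.051 to 0.32 for F10 and -0.13 to 0.24 for F7. The correlation of sister lines turned to 0.045 without the farthest clones and 0.16 in clones 1 to 18. The promoter percent gave differences of 28.0 and 23.7 points without the clones of low total.

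Other signs also turned, among them those of Lamp1 and F2rl2 in control lines, which had been called. Mcf2l for Tet2 KO in SCF clones had 0.10 with the promoter share, 0.056 with 50 kb, 0.0078 in clones 1 to 18 and -0.12 to 0.061 without each clone. With 50 kb Mcf2l had 0.072 in control and 0.28 in KO lines between the cytokines, and -0.35 to 0.051 in KO lines without each clone. Lamp1 had 0.13 for Tet2 KO in clones 23 to 29 and, between the cytokines, -0.0039 with 1 kb in control lines. In KO lines it had -0.0094 with DESeq2, -0.040 with library totals, -0.0056 with no filter, -0.021 with the promoter share, -0.067 with 1 kb, -0.15 against clones 23 to 29 and -0.15 to 0.10 without each clone. F2rl2 had 0.15 with 50 kb in control lines. The F7 intron 1 peak had -0.0078 to 1.00 in KO lines without each clone. The cause was not tested in any of these. Over all loci, Tet2 KO in SCF clones gave 483 higher and 156 lower, 352 and 25 with DESeq2, 253 and 51 with the promoter share, 242 and 172 with the GC offset, 428 and 64 with library totals, 256 and 36 in clones 1 to 18 and 14 and 0 in clones 23 to 29.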
